A study of Mus musculus with 9 samples.

Results

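Wound-edge skin taken on day 7 after a back wound was compared with the skin disc removed at wounding (day 0), using the miRNA counts of 6 of the 9 libraries in the series. Both groups came from 6-month-old adult females of C57BL/6, the inbred mouse strain used most widely in laboratories. Their back skin was wounded with a punch 8 mm wide under pentobarbital anesthesia. The day 7 group held 3 samples of skin from the wound edge, and the day 0 group held 3 samples of the punched-out skin. Apart from the anesthetic, no drug, transgene or deletion is named in the labels of either group. The other 3 libraries, from a diabetic mouse model, entered the fits to estimate the spread between libraries and also counted in the filter on low counts, which left 447 miRNAs tested, against 415 with the 6 libraries alone. It is not stated whether the 2 groups shared animals, and the p-values here reflect only how much the individual samples vary, which may be in part technical. Summed read counts per library were 4767089, 3937692 and 2537167 for replicates 1, 2 and 3 of day 7, and 3185362, 5453539 and 2807482 for those of day 0. A level in CPM is a count as a share of the library, after scaling by TMM, a method that sets a typical miRNA to no change. Fold changes are therefore relative to the other miRNAs.

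A miRNA gene is transcribed as a long precursor that is cut to a hairpin. The hairpin is cut again into a short duplex with a 5p and a 3p strand, called arms, and usually 1 arm is kept in the silencing complex while the other is degraded. Bases 2 to 8 of the kept arm, the seed, are the main contact with target mRNAs, so miRNAs with the same seed form a family with overlapping targets. Many hairpins lie in introns or exons of a host gene or next to each other, and can be cut from a shared precursor. The counts were therefore read at 4 levels: single miRNAs, the 2 arms of a hairpin, seed families, and units of hairpins that share a host gene or lie within 10 kb on a strand.

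The sequences that carry the main findings are given first, from RefSeq on build GRCm38.p6, 5′ to 3′. The mir-335 hairpin lies in an intron of Mest, an imprinted gene expressed from the paternal copy, at chr6:30741299-30741396 on the plus strand. It is shown because it was the 1 hairpin whose arm ratio changed. Capitals mark the 5p arm (left) and the 3p arm (right).
mir-335 hairpin: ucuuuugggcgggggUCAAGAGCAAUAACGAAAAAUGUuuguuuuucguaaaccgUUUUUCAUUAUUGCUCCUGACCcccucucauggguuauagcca
In the mature sequences that follow, capitals mark the seed. The arms of mir-335 have different seeds.
miR-335-5p: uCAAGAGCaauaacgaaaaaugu
miR-335-3p: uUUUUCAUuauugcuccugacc
Members of the 6 seed families that changed and had at least 2 measured members are shown in pairs, because 1 member of each pair passed the test alone and the other did not.
miR-501-3p: aAUGCACCcgggcaaggauuug
miR-500-3p: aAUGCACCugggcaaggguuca
miR-146b-5p: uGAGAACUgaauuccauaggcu
miR-146a-5p: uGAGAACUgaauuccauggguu
miR-193b-3p: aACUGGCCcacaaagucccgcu
miR-193a-3p: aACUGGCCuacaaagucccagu
miR-200a-5p: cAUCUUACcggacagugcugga
miR-200b-5p: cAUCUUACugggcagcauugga
miR-181c-3p: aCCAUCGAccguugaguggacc
miR-181a-1-3p: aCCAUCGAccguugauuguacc
miR-200a-3p: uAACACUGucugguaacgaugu
miR-141-3p: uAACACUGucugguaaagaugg
The pairs share the seed and differ by 2 to 5 bases elsewhere. miR-146b-5p and miR-146a-5p differ at 2 positions counted from the 5′ end, A18G and C21U. miR-200a-3p and miR-141-3p also differ at 2 positions, C17A and U22G.

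At the level of single miRNAs 57 of 447 tested rows changed at day 7, which is 12.8% (edgeR quasi-likelihood test, Benjamini-Hochberg adjusted p under 0.05). Of these 36 were higher, 8.05% of those tested, and 21 were lower, 4.7%. The higher calls include rows that repeat another: miR-142b has the counts of miR-142a-3p and miR-467b-5p those of miR-467a-5p. miR-129b-3p has nearly those of miR-129-5p. The ranges of the 3 and 3 libraries did not overlap for 30.4% of the tested rows. The median log2 fold change of all 447 was 0.08. Of the tested rows 207 were 5p arms and 219 were 3p arms, and 15.9% of the 5p arms and 10% of the 3p arms were called. On the X chromosome 40 miRNAs were tested, with a median log2 fold change of 0.20, of which 7 were higher and 0 lower. Those 7 came from 4 places: the Clcn5 introns (miR-501-3p, miR-362-5p and miR-532-5p), mir-223 (both arms), the mir-322 cluster (miR-450b-5p) and the mir-221 cluster (miR-222-3p). The miR-222-3p call (0.64 ± 0.17) was lost with the replicate number as a block (edgeR adjusted p = 0.0565), without any 1 of the 6 libraries (up to 0.169) and in 5 other settings, including total-count scaling (0.10, adjusted p = 0.784). Sequences were at hand for 381 tested miRNAs. Their median GC content was 40.9% among 27 called higher, 45.5% among 18 called lower and 47.6% among 336 not called. The first base was U in 16 of 27, 7 of 18 and 135 of 336 of these. These sequence values are descriptions without a test, and rows of opposite strands or of 1 hairpin are not independent of each other. Of the 57 calls 18 held whichever of the 6 libraries was left out. With scaling by total counts, which miR-21a-5p dominates at 55.6%, 52.7% and 40.6% of day 7 counts and 18.6%, 33.2% and 27.4% of day 0 counts, the median of all tested miRNAs moved to -0.46 and the calls to 16 higher and 117 lower, with 36 of the 57 calls shared. Upper-quartile scaling moved the median to -0.12 and gave 26 higher and 34 lower.

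Only some of the lists of cell type markers held called miRNAs. Of 7 myeloid and lymphoid miRNAs 6 rose, and their summed level ran from 1775 to 2381 CPM at day 7 and from 874 to 1113 CPM at day 0. Of 10 keratinocyte and epithelial miRNAs 5 fell, with sums of 59810 to 64590 CPM at day 7 and 72270 to 86760 CPM at day 0. Of 4 red cell miRNAs 2 rose, with sums of 1624 to 2875 CPM at day 7 and 694 to 1351 CPM at day 0. These 2, miR-144-3p and miR-451a, come from neighbouring hairpins, and each call was lost in 4 of the 6 fits that left out a library. For comparison, 8.05% of all tested miRNAs were called higher and 4.7% lower. Listed miRNAs that share a hairpin or a cluster are not independent, so the counts of calls per list are descriptions without a test. Sums of 5 striated muscle miRNAs overlapped between the groups, at 50410 to 100700 CPM at day 7 and 44330 to 62640 CPM at day 0, and 0 of these passed. Smooth muscle, endothelial, melanocyte, fibroblast and liver lists had 0 called miRNAs, and no listed marker was at 0. The fibroblast sums nonetheless did not overlap, at 13200 to 13670 CPM at day 7 and 14750 to 17330 CPM at day 0. Sums of the smooth muscle, endothelial, melanocyte and liver lists overlapped. The liver sum, of miR-122-5p alone, ran from 3.0 to 171 CPM at day 7 and from 2.9 to 133 CPM at day 0. In whole skin a change in the number of cells of a type and a change in RNA per cell cannot be told apart. The part of these shifts in the family and unit results was not tested.

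The arm comparison asked whether the wound edge kept the same strand of each hairpin as unwounded skin. Of 151 hairpins with both arms tested, the ratio of 5p to 3p counts changed in 1, mir-335, which is 0.662% (edgeR with each library as its own block, so that library scaling cancels). In 123 of the 151 neither arm is made by another hairpin, and mir-335 was also the 1 called when these alone were tested. In the rest, reads of an arm can come from several hairpins, so the ratio need not describe a single hairpin. An unadjusted p under 0.05 was found for 27 hairpins, and 21.9% of the 151 had ranges of the 5p share that did not overlap between the groups. mir-335 gave 181, 291 and 78 reads of the 5p arm and 488, 404 and 123 of the 3p arm at day 7. At day 0 it gave 52, 78 and 50 reads of the 5p arm and 37, 33 and 23 of the 3p arm. The 3p arm was thus the more frequent arm in each day 7 library and the less frequent in each day 0 library. Its share was 72.9%, 58.1% and 61.2% of mir-335 reads at day 7 and 41.6%, 29.7% and 31.5% at day 0. The 5p share averaged 35.9% ± 7.8 at day 7 and 65.7% ± 6.4 at day 0 (SD, n = 3 each). The log2 ratio of 5p to 3p fell by 1.81 (SE 0.33, n = 3 per group, edgeR adjusted p = 0.0226).

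Both mir-335 arms rose in level. The 3p arm stood at 144, 135 and 59.2 CPM at day 7 and at 9.24, 5.91 and 7.79 CPM at day 0, a log2 fold change of 3.89 ± 0.40 (SE). The 5p arm stood at 53.3, 97.3 and 37.6 CPM at day 7, against 13, 14 and 16.9 CPM at day 0, a log2 fold change of 2.11 ± 0.36. The ratio call was lost without day 0 replicate 2 (log2 change -1.64, adjusted p = 0.247), day 0 replicate 3 (-1.73, 0.179) or day 7 replicate 1 (-1.50, 0.0930), with the direction kept. When the 6 libraries alone were fitted 4 hairpins passed, each with an edgeR adjusted p of 0.0341. These were mir-335, and, named after their values were seen, mir-362 of Clcn5 (log2 change of 5p over 3p 1.25), mir-7-1 (1.19) and mir-125b-2 (0.79). The 5p arms of mir-7-1 and mir-125b-2 can also come from other hairpins, so these ratios do not show the arm choice of a single hairpin.

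**Figure D1:**
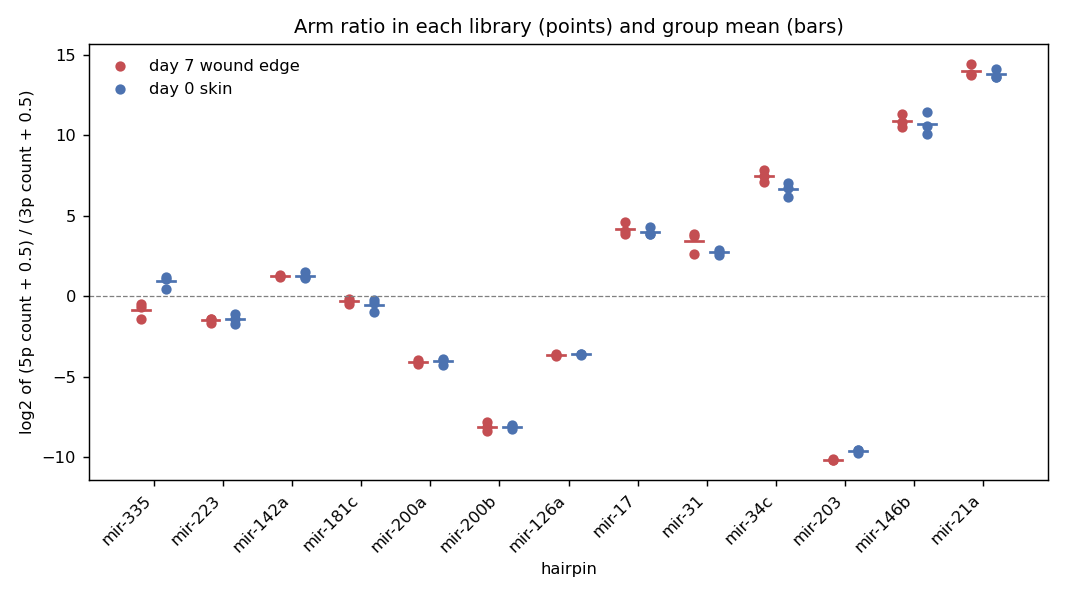
The log2 ratio of 5p to 3p counts, with 0.5 added to each, is shown on the y axis for 13 hairpins on the x axis, with 1 point per library (day 7 left, day 0 right) and a bar at the group mean. The 3 day 7 points of mir-335 lie below 0 and its 3 day 0 points above, while hairpins such as mir-142a, mir-126a and mir-200b overlap between the groups.

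In other hairpins whose miRNAs moved at day 7 the ratio did not pass the test. mir-223, an abundant hairpin of neutrophils and macrophages, gave 26.3% ± 2.0 of its reads from the 5p arm at day 7 and 27.5% ± 4.3 at day 0 (SD, n = 3 each), a change in log2 ratio of -0.06 ± 0.26 (SE), while its 5p and 3p arms rose by 1.65 and 1.68 on the log2 scale. mir-142a, a hairpin of blood cells, gave 70.7% ± 0.6 at day 7 and 70.9% ± 2.9 at day 0, a change of -0.01 ± 0.16, with both arms higher (1.02 and 1.05). mir-21a, which is induced in injured tissue, gave 99.99% of its reads from the 5p arm in both groups, with a change of 0.16 ± 0.23 and both arms higher (1.43 and 1.30). The miR-21a-5p call was lost without day 0 replicate 3 or day 7 replicate 1 or 2 (edgeR adjusted p up to 0.0931). That of miR-21a-3p was lost without day 0 replicate 2 or day 7 replicate 1 (up to 0.0931) and with total-count scaling. Among the hairpins that fell, mir-200a of epithelia had a change of -0.07 ± 0.20 and mir-181c one of 0.25 ± 0.26, with both arms of each lower.

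Further named hairpins also missed the threshold. The change in log2 ratio was -0.03 ± 0.13 for mir-126a of endothelium, 0.03 ± 0.21 for mir-200b, 0.17 ± 0.26 for mir-17 and 0.33 ± 0.34 for mir-146b. It was 0.70 ± 0.46 for mir-34c (adjusted p = 0.447), 0.85 ± 0.35 for mir-31 (0.228) and -0.54 ± 0.18 for mir-203 (0.151). The 5p arm of mir-203 made up 0.0885% of its reads at day 7 and 0.129% at day 0, with non-overlapping ranges. It lies opposite miR-203b-3p on the other strand and had nearly the same level (39.8 and 35.3 CPM at day 7, 68.3 and 60.4 CPM at day 0), and the use of strand in counting is not given. The hairpins mir-155, mir-199b and mir-342 had no pair of arms that entered the test.

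Across all 151 hairpins the log2 fold changes of the arms had a Pearson r of 0.57 and a Spearman rho of 0.45, as a description across hairpins, which share libraries and are not independent replicates. Both arms had the same sign in 98 of 151. Both arms were called in 8, of which mir-142a, mir-21a, mir-223, mir-335 and mir-423 were higher and mir-181c, mir-200a and mir-203b lower. Reads counted for mir-203b may be those of mir-203 on the opposite strand. Of these 8, only mir-142a and mir-335 kept both calls whichever library was left out, and mir-142a lost both with total-count scaling. miR-423-3p lost its call in all 6 fits that left out a library, and miR-423-5p in 5 of them. In 19 hairpins 1 arm was called. The median absolute change of the log2 ratio was 0.35, and it was under 1 in 136 hairpins. The 5p arm was the more frequent in 89 hairpins at day 7 and 88 at day 0, and the more frequent arm differed between the groups in 13, mir-335 and mir-362 among them. The 13 also hold mir-338 and mir-3065, which are not independent, since miR-338-3p and miR-3065-5p have the same counts in all libraries.

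**Figure D2:**
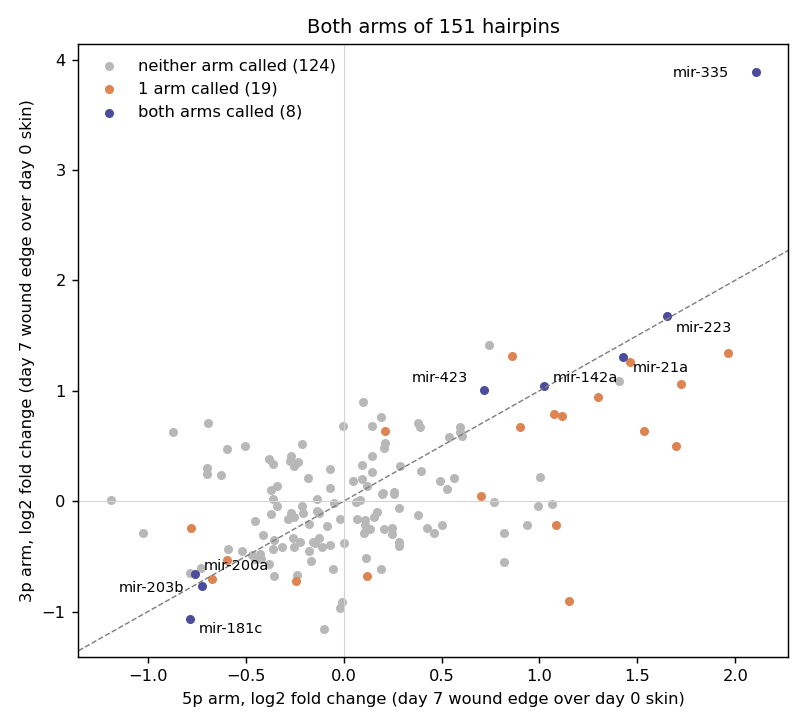
Each point is 1 of 151 hairpins, with the log2 fold change (day 7 over day 0) of the 5p arm on the x axis and of the 3p arm on the y axis, and the dashed line marks equal change. Most hairpins with both arms called lie close to the line, while mir-335 lies above it at 2.11 and 3.89.

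Summed over 127 hairpins, the arm with fewer reads took 1.03%, 1.13% and 1.28% of counts at day 7 and 2.17%, 1.58% and 1.66% at day 0. The day 7 libraries lay below all day 0 libraries, at 1.15% ± 0.12 and 1.80% ± 0.32 (SD, n = 3 each, difference -0.655 percentage points, exact two-sided permutation p = 0.1, the smallest that 3 against 3 allows). Without mir-21a the share was 3.01% ± 0.23 at day 7 and 2.76% ± 0.18 at day 0, a difference of 0.251 with the opposite sign (exact permutation p = 0.2).

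Of 300 seed families tested 38 changed, which is 12.7%, with 23 higher (7.67%) and 15 lower (5%). Most of these were families of 1 measured miRNA. The 43 families with 2 or more tested members held 6 calls, 2 higher and 4 lower, and in 26 of the 43 all members had the same sign. In none of the 43 did all members pass alone. Ranges did not overlap for 30.3% of the 300 families, and their median log2 fold change was 0.05.

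The 2 higher families each followed 1 member. The miR-146 family, inhibitors of NF-kB signalling in innate immunity, summed to 16148, 13778 and 12281 CPM at day 7 and 7008, 6933 and 7137 CPM at day 0. The groups did not overlap, and the family rose by 1.00 ± 0.15 on the log2 scale (SE, edgeR adjusted p = 0.00248). With total-count scaling the call was lost (0.45, adjusted p = 0.130). miR-146b-5p supplied 87.6% of the family's counts and rose by 1.07 ± 0.19, and its call was also lost with that scaling (0.52, adjusted p = 0.134). By contrast, miR-146a-5p averaged 1246 ± 131 CPM at day 7 and 937 ± 154 CPM at day 0 and did not pass (0.41 ± 0.19, adjusted p = 0.192). The family of miR-501-3p and miR-500-3p, neighbours in Clcn5, summed to 257, 239 and 164 CPM at day 7 and 71.1, 108 and 105 CPM at day 0, and rose by 1.22 ± 0.26 (adjusted p = 0.0123). Here miR-501-3p rose by 1.39 ± 0.32, and miR-500-3p stood at 0.48 ± 0.39 (adjusted p = 0.452). The family call was lost without day 7 replicate 1 (1.03, adjusted p = 0.0824) and with total-count scaling (0.69, 0.0837), and that of miR-501-3p without any of replicates 1 and 2 of day 7 and 2 and 3 of day 0 (up to 0.0931).

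The 4 lower families held epithelial and other miRNAs. The miR-200a-3p and miR-141-3p family, which maintains epithelial character by repressing Zeb factors, summed to 2794, 2313 and 3901 CPM at day 7 and 4798, 4608 and 4820 CPM at day 0, and fell by 0.66 (SE 0.18, adjusted p = 0.0347). Its members come from different chromosomes and had similar changes, -0.66 ± 0.18 for miR-200a-3p, which passed, and -0.65 ± 0.27 for miR-141-3p (adjusted p = 0.147). The family of the opposite arms miR-200a-5p and miR-200b-5p fell by 0.74 (SE 0.21, adjusted p = 0.0403), at 173, 158 and 212 CPM at day 7 and 253, 328 and 325 CPM at day 0. The miR-193 family fell by 0.92 (SE 0.25, adjusted p = 0.0396), at 43.0, 46.1 and 82.8 CPM at day 7 and 116, 93.7 and 114 CPM at day 0. miR-193b-3p made up 93.2% of it and fell by 1.00, while miR-193a-3p stood at -0.02 ± 0.34. The family of miR-181c-3p and miR-181a-1-3p fell by 0.71 (SE 0.21, adjusted p = 0.0451), at 83.4, 74.2 and 92 CPM at day 7 and 114, 152 and 143 CPM at day 0. In it miR-181c-3p fell by 1.07 and miR-181a-1-3p stood at -0.43 ± 0.22 (adjusted p = 0.240).

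These lower family calls depended on single libraries, with the direction kept. Each of the 4 was lost when day 0 replicate 2, day 0 replicate 3, day 7 replicate 1 and day 7 replicate 2 were left out in turn, with adjusted p-values of 0.0577, 0.105, 0.117 and 0.105 for miR-200a-3p and miR-141-3p, 0.101, 0.120, 0.117 and 0.109 for the miR-200a/200b-5p family, 0.0522, 0.109, 0.132 and 0.120 for miR-193, and 0.115, 0.130, 0.117 and 0.117 for the miR-181 3p arms. The miR-193 call was also lost without day 0 replicate 1 (0.0544). A fit that blocked on replicate number ended the miR-181 3p call (-0.70, adjusted p = 0.0645), as did testing with no filter on low counts and leaving miR-21a-5p out of totals used for scaling. The last of these also ended the call of the miR-200a/200b-5p family. The single members miR-200a-3p, miR-200a-5p, miR-181c-3p and miR-193b-3p lost their calls in the same 4 cases. Their highest adjusted p-values with a library left out were 0.117, 0.130, 0.0931 and 0.141. miR-193b-3p also lost its call without day 0 replicate 1 and in the fit of the 6 libraries alone. miR-200a-5p and miR-181c-3p also lost theirs with total counts without miR-21a-5p.

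**Figure D3:**
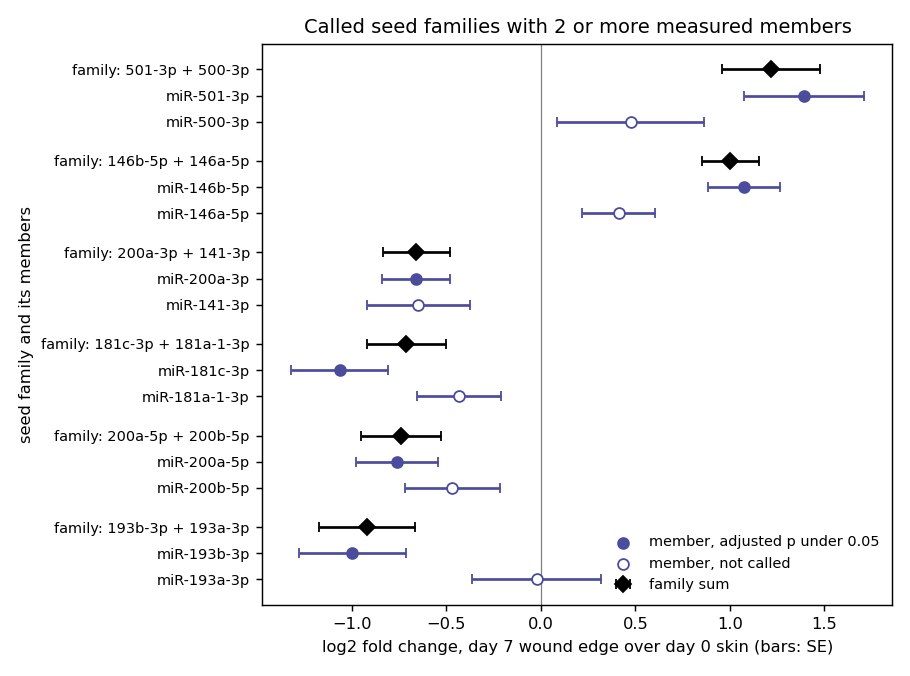
The log2 fold change (day 7 over day 0) on the x axis is shown for each of the 6 called families with 2 or more tested members (diamonds) and for their members (circles, filled where the adjusted p was under 0.05), with bars for the SE. In each family 1 member is filled and the other open, and only in the miR-200a-3p family do both lie at about -0.65.

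Large families of skin miRNAs were mostly not called. The let-7 family, which promotes differentiation, stood at 0.20 ± 0.14 with 9 tested members, of which 5 had a positive sign, and turned negative with total-count scaling. The miR-17 family, which promotes proliferation, stood at 0.31 ± 0.19 and also turned negative with that scaling. The miR-15/16 family, which restrains the cell cycle, stood at 0.05 ± 0.17 and the matrix-repressing miR-29 family at 0.10 ± 0.16, and neither kept its sign throughout. The miR-15/16 value was negative in 8 of 17 alternatives: total-count and upper-quartile scaling, DESeq2 size factors, the DESeq2 test, and without replicate 1 or 2 of day 0 or replicate 2 or 3 of day 7. The miR-29 value was negative in 4 of 17, namely both of those scalings and without day 0 replicate 2 or day 7 replicate 3. The family of miR-200b-3p, miR-200c-3p and miR-429-3p stood at -0.46 ± 0.16 (adjusted p = 0.0921), with all 3 members negative and miR-429-3p called alone. That single call was lost in 3 of the 6 fits that left out a library. The miR-130/301 family stood at -0.75 ± 0.24 (0.0628), the miR-27 family at -0.52 ± 0.18 (0.0845) and the miR-181-5p family at -0.38 ± 0.15 (0.132), with all tested members negative in each. Of 17 alternatives the miR-27 family passed in 8, the replicate block among them (-0.50, adjusted p = 0.0467), the miR-130/301 family in 8, the miR-200b-3p family in 5 and the miR-181-5p family in 2. Among families with 1 tested member, miR-7a-5p rose by 1.70 ± 0.32 and miR-142a-5p by 1.02 ± 0.19, and miR-96-5p fell by 0.81 (SE 0.17). The miR-142a-5p family was not called with total-count scaling (0.48, adjusted p = 0.0670), nor that of miR-96-5p with total counts without miR-21a-5p.

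Families were built only from miRNAs with a RefSeq sequence, and this mattered for miR-34. The seed of miR-34a-5p gave 0.12 ± 0.20 (adjusted p = 0.749). With miR-34c-5p, a p53-induced relative, joined to it by name, an alternative added after the data were seen, the family stood at 1.48 ± 0.30 (adjusted p = 0.00800). Joining by name changed no call in the miR-130/301, miR-199a-5p, miR-30 and miR-23 families, though the miR-30 value moved to 0.04 ± 0.14 from -0.11 ± 0.15.

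Of 183 units tested 27 changed, which is 14.8%, with 17 higher (9.29%) and 10 lower (5.46%). Ranges did not overlap for 32.2% of units. The median log2 fold change of all 183 was 0.11. Host genes that code for protein held 98 units, of which 15.3% were called, non-coding hosts held 32 with 15.6%, and 53 units lay between genes with 13.2%. By direction, protein-coding hosts had 11 higher and 4 lower, non-coding hosts 4 higher and 1 lower, and units between genes 2 higher and 5 lower. Host transcripts themselves were not measured. Among 36 units with 2 or more tested hairpins, 21 had miRNAs all of the same sign, 5 were called higher and 4 lower.

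The unit in Mest, mir-335 alone, had the largest increase of the 17 units that rose. It summed to 197, 232 and 96.8 CPM at day 7 and 22.2, 19.9 and 24.7 CPM at day 0, with a log2 fold change of 2.98 ± 0.34 (SE, edgeR adjusted p = 7.56e-04). The unit of mir-34b and mir-34c, p53-induced hairpins on chromosome 9, stood at 982, 1062 and 403 CPM at day 7 and 232, 280 and 239 CPM at day 0 and rose by 1.71 ± 0.33. miR-34c-5p made up 97.4% of it. Both units were called whichever of the 6 libraries was left out, and day 7 replicate 3 was the lowest day 7 library in each.

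Of the units tied to blood and immune cells 5 are described here that rose, beside the higher sums of myeloid and red cell markers given above, to which most of their miRNAs belong. Units of the same kind that did not pass were mir-486 of red cells, in Ank1 (0.60 ± 0.23, adjusted p = 0.128), mir-146a (0.41 ± 0.19, 0.199) and mir-150 of lymphocytes (0.30 ± 0.26, 0.50), the last pair chosen after their values were seen. mir-223, in the non-coding F630028O10Rik on the X chromosome, summed to 561, 505 and 344 CPM at day 7 and 122, 176 and 146 CPM at day 0 (1.67 ± 0.22, adjusted p = 0.00126). mir-342, in an intron of Evl, stood at 48.3, 60.9 and 43.3 CPM at day 7 and 13.2, 21.1 and 17.6 CPM at day 0 (1.55 ± 0.24). mir-142a of Mir142hg averaged 1427 ± 223 CPM at day 7 and 699 ± 94.8 CPM at day 0 (SD, 1.03 ± 0.17). mir-511, within the macrophage mannose receptor gene Mrc1, stood at 42.4, 46.1 and 44.8 CPM at day 7 and 15.2, 21.9 and 23.0 CPM at day 0 and rose by 1.15 ± 0.28, although neither of its arms passed alone (miR-511-3p did with the replicate number as a block, adjusted p = 0.0472). The red cell unit of mir-144 and mir-451a rose by 1.21 ± 0.34, with 2367, 1499 and 1254 CPM at day 7 and 1041, 683 and 493 CPM at day 0. In these 5 units, described because they rose, the groups did not overlap, as in 32.2% of all 183 units. The call of mir-144 and mir-451a was lost without day 0 replicate 2 (adjusted p = 0.139) or 3 (0.119) or day 7 replicate 1 (0.220) or 2 (0.0840), and with total-count (0.61, 0.241) or upper-quartile scaling (0.99, 0.0894) and total counts without miR-21a-5p (0.0876). That of mir-511 was lost in 4 of the 6 cases, when day 7 replicate 1 (0.0664), day 7 replicate 2 (0.0753), day 0 replicate 1 (0.0717) or day 0 replicate 2 (0.0542) was left out, and with total-count scaling (0.63, 0.0578).

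mir-21a, which lies at the end of Vmp1, rose by 1.43 ± 0.30 as a unit (adjusted p = 0.0100) but not once day 7 replicate 1 was left out (1.23, adjusted p = 0.0614). It averaged 657040 ± 146130 CPM at day 7 and 244100 ± 89263 CPM at day 0 (SD, n = 3 each).

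**Figure D4:**
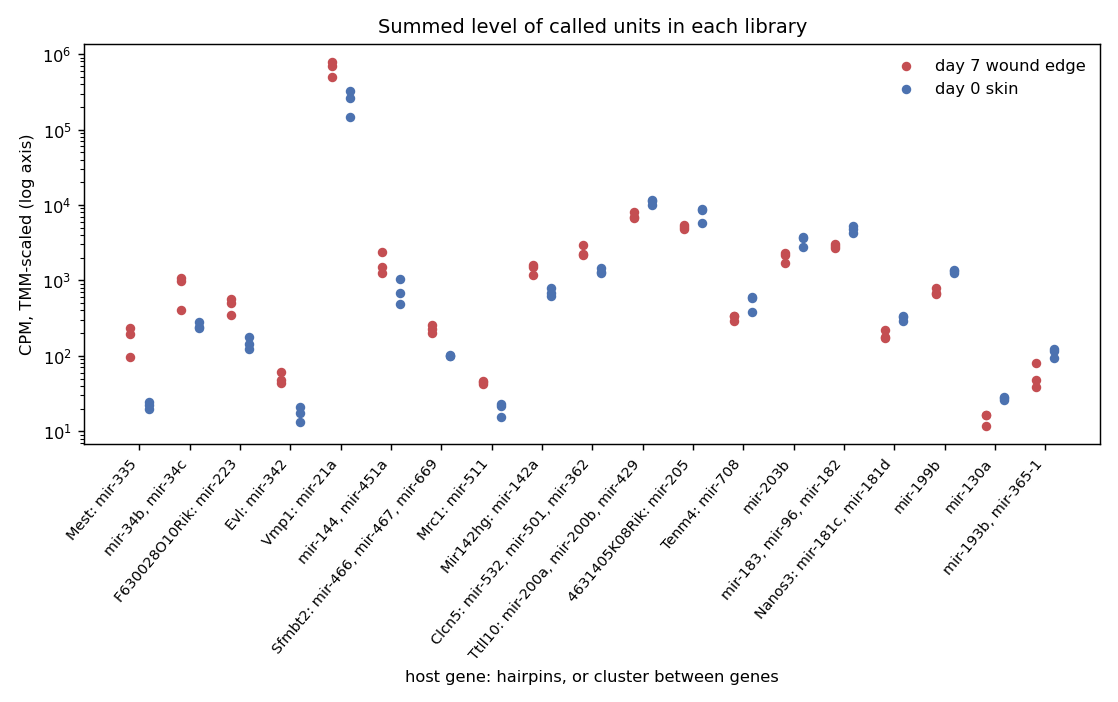
Summed CPM on a log axis is shown for 19 called units on the x axis, with 1 point per library, day 7 left of day 0, ordered from the most positive to the most negative log2 fold change. In each unit shown the 3 day 7 points and the 3 day 0 points do not overlap. These units were chosen by the test on the same libraries, which favors such a separation. Over all 183 units, 32.2% had ranges without overlap.

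Units with several hairpins differed in how alike their miRNAs were. The intron of Sfmbt2, an imprinted Polycomb-related gene, holds a rodent repeat array of mir-466, mir-467 and mir-669 hairpins. All 11 tested miRNAs of it had positive log2 fold changes, from 0.64 to 1.96, and 5 passed, against 8.05% called higher over all tested miRNAs. The highest value was that of miR-466b-5p, at means of only 5.08 CPM at day 7 and 1.26 CPM at day 0. The calls of miR-466b-5p and miR-467c-5p were lost in 4 of the 6 fits that left out a library, and that of miR-467e-5p in 3. Those of miR-467a-5p and miR-669a-5p held. The sum stood at 230, 255 and 202 CPM at day 7 and 98.1, 102 and 98.2 CPM at day 0 and rose by 1.20 ± 0.17 (adjusted p = 0.00129). Copies in this array share sequence, so reads can be counted at more than 1 of them, and its miRNAs are not independent. The largest part, 39.0% of its counts, was miR-467a-5p, with a mean of 96.4 CPM in day 7 libraries against 39.2 CPM in day 0 libraries.

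The Clcn5 introns on the X chromosome hold mir-532, mir-501, mir-362, mir-500 and mir-188. The sum was 2916, 2241 and 2191 CPM at day 7 and 1238, 1474 and 1290 CPM at day 0 and rose by 0.88 ± 0.15 (adjusted p = 0.00382), with 81.2% of counts from miR-532-5p. Of 7 tested miRNAs 3 passed: miR-501-3p (1.39 ± 0.32), miR-362-5p (1.08 ± 0.31) and miR-532-5p (0.90 ± 0.16). miR-188-5p, miR-532-3p and miR-500-3p stood at 0.63, 0.67 and 0.48, and miR-362-3p at -0.22 ± 0.31. The 5p share of mir-362 was 51.4% ± 2.3 at day 7 and 31.0% ± 7.4 at day 0 (SD, n = 3 each), without overlap and with an adjusted p of 0.151 for the ratio. The unit was called whichever library was left out, but not with total-count scaling (0.33, adjusted p = 0.192). For miR-362-5p alone, leaving out any library other than day 7 replicate 3 ended the call, with adjusted p-values of up to 0.169.

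Among lower units the epithelial ones moved with the keratinocyte markers given above, which include their miRNAs. The unit of mir-200a, mir-200b and mir-429, within Ttll10, summed to 6706, 6904 and 8186 CPM at day 7 and 9991, 11239 and 11548 CPM at day 0 and fell by 0.59 (SE 0.14, adjusted p = 0.0190). All 5 tested miRNAs were negative and 3 passed, led by miR-429-3p (-0.94 ± 0.21). The miR-429-3p call was lost without day 0 replicate 3 or day 7 replicate 1 or 2 (edgeR adjusted p up to 0.0754). The unit of mir-200c and mir-141, of the same families but in Gm15884 on chromosome 6, stood at -0.29 ± 0.14 and did not pass (adjusted p = 0.197). The cluster of mir-183, mir-96 and mir-182, known from sensory organs and epidermis, fell by 0.74 (SE 0.14, adjusted p = 0.00713), at 2653, 3015 and 2885 CPM at day 7 and 4271, 4788 and 5183 CPM at day 0. Its miRNAs were close to each other, at -0.79 for miR-182-5p, -0.81 for miR-96-5p and -0.61 for miR-183-5p, the last of which did not pass alone (0.0595). mir-205, an epidermal hairpin in 4631405K08Rik, fell by 0.59 (SE 0.17, adjusted p = 0.0419), with means of 5111 ± 357 CPM in day 7 and 7714 ± 1674 CPM in day 0 libraries (SD).

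Other lower units lay outside that marker list. The mir-181c and mir-181d unit in Nanos3 was the 1 named unit with several hairpins in which every tested miRNA passed alone, at -1.07 for miR-181c-3p, -0.79 for miR-181c-5p and -0.64 for miR-181d-5p. Each of these 3 calls was lost in 4 of the 6 fits that left out a library, with adjusted p-values of up to 0.0931, 0.154 and 0.117. Its sum fell by 0.74 (SE 0.16, adjusted p = 0.0127), with 172, 175 and 220 CPM at day 7 and 288, 324 and 337 CPM at day 0. mir-199b, related to hairpins of mesenchymal cells, fell by 0.87 (SE 0.18), at 690, 661 and 802 CPM at day 7 and 1249, 1354 and 1342 CPM at day 0. mir-193b with mir-365-1, known from fat and muscle, fell by 0.99 (SE 0.26), at 38.6, 48.1 and 80.9 CPM at day 7 and 122, 93.9 and 115 CPM at day 0. mir-130a, known from endothelial and blood-forming cells, fell by 0.88 (SE 0.26), at 16.2, 11.7 and 16.4 CPM at day 7 and 26.0, 27.2 and 28.1 CPM at day 0. mir-708, in Tenm4, fell by 0.70 (SE 0.19), with means of 322 ± 26.9 CPM in day 7 and 521 ± 126 CPM in day 0 libraries. mir-203b, on the strand opposite the epidermal mir-203, fell by 0.72 (SE 0.18), while miR-203-3p, the main product of that place, stood at -0.24 ± 0.21 and did not pass. The use of strand in counting is not given, so reads counted for mir-203b may be those of mir-203, which was not tested.

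Of the lower units the mir-183 cluster and mir-199b were called whichever library was left out. When libraries were scaled by totals that omit miR-21a-5p, the mir-183 cluster, Ttll10, mir-205, Nanos3, mir-708 and mir-203b were not called. The others were lost, with the direction kept, without at least 1 library, the highest adjusted p-values being 0.0793 for Ttll10, 0.171 for mir-205, 0.0572 for Nanos3, 0.0892 for mir-193b and mir-365-1, 0.123 for mir-130a, 0.122 for mir-708 and 0.0822 for mir-203b. Day 7 replicate 1 was among those libraries for each of these units. Day 0 replicate 3 was among them for all but Nanos3, and day 7 replicate 2 for all but Nanos3. Without day 0 replicate 2 the calls of mir-205, mir-130a and mir-708 were lost, and without day 0 replicate 1 those of mir-193b and mir-130a. The mir-130a call was lost as well without day 7 replicate 3 and with the replicate number as a block (-0.89, adjusted p = 0.0700).

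**Figure D5:**
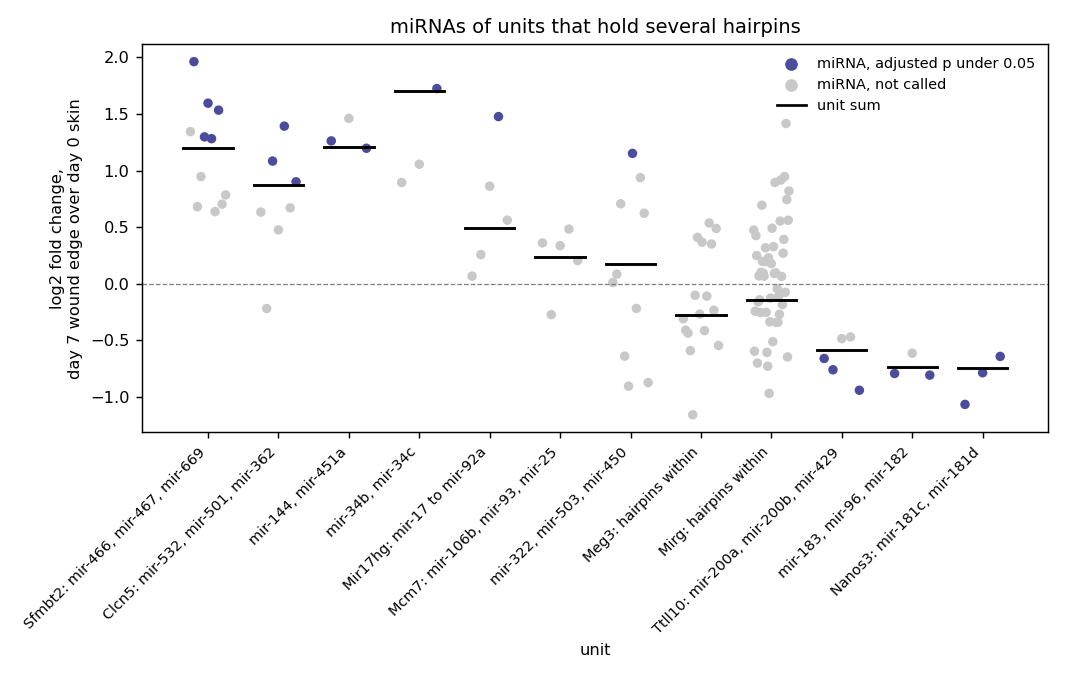
The log2 fold change (day 7 over day 0) on the y axis is shown for each tested miRNA of 12 units with several hairpins on the x axis, dark where the adjusted p was under 0.05, with a bar for the unit's sum. The miRNAs of Sfmbt2 lie between 0.64 and 1.96, those of Ttll10 between -0.94 and -0.47, and those of Mirg spread from -0.97 to 1.42 with 0 called.

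Other multi-hairpin units did not pass as sums. In Mir17hg, the proliferation-linked mir-17/92 precursor, the sum stood at 0.49 ± 0.22 (adjusted p = 0.180). Its 5 tested miRNAs ran from 0.07 for miR-17-3p to 1.48 ± 0.34 for miR-19a-3p, which passed alone, but not when any of 4 libraries, replicates 1 and 2 of day 7 and 2 and 3 of day 0, was left out (adjusted p up to 0.103). The Mcm7 unit of mir-106b, mir-93 and mir-25 stood at 0.24 ± 0.15. In the X-linked cluster of mir-322, mir-503 and mir-450 the sum stood at 0.18 ± 0.20, and 10 miRNAs ran from -0.90 to 1.15, the highest of them miR-450b-5p, which passed alone. Its call was lost when day 0 replicate 3 or day 7 replicate 1 was left out (adjusted p up to 0.0931). Total-count scaling also ended the calls of miR-450b-5p and miR-19a-3p. The sums of these 3 units all turned negative with total-count scaling, and the last also with upper-quartile scaling and without day 0 replicate 1 or day 7 replicate 2. The imprinted non-coding genes Mirg and Meg3 on chromosome 12 held 49 and 16 tested miRNAs, of which 0 passed, with sums at -0.15 ± 0.19 and -0.28 ± 0.24, each slightly positive without day 0 replicate 1. In Mirg 28 of 49 miRNAs were positive and in Meg3 5 of 16. The Egfl7 unit of endothelial mir-126a stood at 0.32 ± 0.21, negative with total-count scaling, the mir-23b unit at -0.57 ± 0.20 (adjusted p = 0.0808, called in 4 of 18 alternatives), the mir-23a unit at -0.28 ± 0.15 and the mir-132 and mir-212 unit at 0.61 ± 0.27 (0.180).

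A further 8 units passed outside the rule for named units and are given after their values were seen. Higher ones were AA467197 with mir-147 (2.0 ± 0.54), Rnf130 with mir-340 (1.11 ± 0.17), Mfsd13a with mir-146b (1.07 ± 0.19), Mir155hg with mir-155 of activated immune cells (1.05 ± 0.24), Nsrp1 with mir-423 (0.90 ± 0.22), Pde2a with mir-139 (0.87 ± 0.21) and 4833445I07Rik with mir-191 and mir-425 (0.66 ± 0.14). The lower one was AC124108.1 with mir-135b (-2.42 ± 0.62), whose ranges overlapped between the groups. Of the 8, the mir-340 and mir-146b units were called whichever library was left out, but not with total-count scaling (0.57, adjusted p = 0.0554, and 0.52, 0.125), which also ended the calls of mir-155, mir-423, mir-139 and mir-191 with mir-425. The other calls were each lost without day 0 replicate 2 and without day 7 replicate 1, with adjusted p-values of up to 0.123. Leaving out day 0 replicate 1 ended the calls of mir-147 and mir-423, day 0 replicate 3 those of mir-135b, mir-423 and mir-139, and day 7 replicate 2 those of mir-147, mir-135b, mir-423 and mir-191 with mir-425.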

How the data were processed

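Small RNA of mouse back skin was sequenced by the study as 50 bp single-end reads, per the labels' protocols. The authors deposited 1 table of whole-number read counts and TPM values per miRNA and library, per the file headers. The deposited counts were not normalized. The deposited TPM values equal CPM without TMM scaling in the day 7 and day 0 columns, which was tested on the table, and were not used further. A further 3 TPM columns were not used. The submitters' processing notes name Bowtie, DESeq 3.0.3 and mm9 without their roles, and the treatment of strand and of reads with several matches is not given in the sources used here. Rows number 1129, of which 30 are predicted miRNAs.

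Counts of all 9 libraries were fitted with edgeR 4.0.16 in R 4.3.3 (quasi-likelihood F test, TMM scaling, filterByExpr at min.count 10 and min.total.count 15, Benjamini-Hochberg adjusted p under 0.05), with the contrast day 7 minus day 0. The filter left 447 miRNAs, and the rows left out hold 0.0217% of counts. The common biological coefficient of variation was 27.8%. SE values come from the F statistic. Arm ratios were tested with each library as a block and the arm by group interaction. Sequences from RefSeq (GRCm38.p6) covered 936 rows and 77.0% of counts, and hairpins and GENCODE vM21 host genes on the same strand covered 1088 rows. Counts were summed by seed, and by host gene or by hairpins within 10 kb. Left out of unit sums were miRNAs made by hairpins of several units, and of 14 pairs of rows on opposite strands 1 row each was left out of sums, as were 8 rows that repeat the counts of another.

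Named hairpins, families and units followed a written rule: for units up to 8 called in each direction with a mean of at least 10 CPM, for families the same with at least 2 tested members, called hairpins with at least 10 counts in the weaker arm, and preset lists. The members and lists were chosen with earlier results of these data known. In simulated counts with known changes, 60% of 2-fold and 93% of 4-fold changes of miRNAs were recovered with 2 of 247 unchanged miRNAs called. The values were 66.7% and 93.3% of arm ratio changes with 1 of 91, 71.7% and 98.3% of families with 1 of 180, and 62.5% and 82.5% of units with 0 of 103. The simulation planted 100 changes of each size in 447 miRNAs and 30 of each in 151 arm ratios. It planted 60 of each in 300 families and 40 of each in 183 units. These shares are larger than those called in the data, which eases the adjusted threshold. The recovery rates can therefore be too high for these data, most of all for arm ratios. Replicates differed by a chi-square per degree of freedom of 155 to 619, far over counting noise, so all 6 libraries were kept as separate samples. Once group means were removed, day 7 and day 0 libraries with the same number had correlations of 0.152, 0.338 and 0.341. All exceed 0.1, the criterion set for pairing. The fits given here nonetheless have no block, and blocking on that number is an alternative, with its values given where it changed a call. Without the rows of miR-122 these values were 0.106, -0.013 and 0.246. Alternatives covered the replicate block, the 6 libraries alone, each library left out, filters, scalings, DESeq2 1.42.0, limma 3.58.1 for arm ratios, and the joining distance.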

Additional observations from a re-analysis of the deposited data

How the results depend on the processing

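Leaving out 1 library at a time moved the number of changed miRNAs from 57 to between 19 and 68, that of hairpins with a changed arm ratio from 1 to between 0 and 2, that of seed families from 38 to between 13 and 48, and that of units from 27 to between 11 and 29. Without day 0 replicate 2, day 0 replicate 3, day 7 replicate 1 and day 7 replicate 2 the miRNA counts were 27, 22, 19 and 23. Scaling by total counts gave 133 miRNAs, 84 families and 55 units, while 37 miRNAs and 23 families passed when miR-21a-5p was left out of those totals. The fit of the 6 libraries alone gave 4 hairpins with a changed arm ratio. The cause of these shifts was not tested. Scaling moved the split into higher and lower by over 10 percentage points: with upper-quartile scaling it was 16 and 25 for families and 13 and 14 for units, and with total counts 8 and 76 for families and 8 and 47 for units. The share of the arm with fewer reads differed by 0.251 without mir-21a, against -0.655 with it. With the replicate number as a block 57 miRNAs, 1 arm ratio, 42 families and 27 units were called, of which 52, 1, 36 and 26 were shared with the fit without it. The 5 miRNA calls it ended were miR-130a-3p (adjusted p = 0.0621), miR-222-3p (0.0565), miR-423-3p (0.0525), miR-708-3p (0.0507) and miR-574-3p (0.0506). Among the items recomputed singly, it gave calls for miR-144-5p (0.0244) and miR-511-3p (0.0472), besides the miR-27 family call given with the results. Each of the 57 called miRNAs, the 27 called units, the called arm ratio and 9 of the 38 called families was recomputed singly, and none of these changed sign where an alternative gave a value. Arms with few reads limit the ratio test, which 151 hairpins entered with the filter on low counts and 365 without it.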
